A study of Arabidopsis thaliana with 4 samples.

Results

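The cyclins, cyclin-dependent kinases (CDKs) and CDK inhibitors of Arabidopsis thaliana were followed in plants that overexpress the transcription factor gene TEM1 and in wild type. The 41 genes were matched by locus identifier, with no threshold on their values, out of 32678 loci in the deposited table. They comprise 9 B-type, 8 A-type and 10 D-type cyclins, 5 CDKs (CDKA and CDKB genes) and 9 inhibitors (KRP1 to KRP7, SIM and SMR1). RNA was sequenced from 2 samples of wild type (WT) and 2 of 35S:TEM1, in which TEM1, a repressor of flowering from the RAV family, is driven by a viral promoter that is active in most tissues. Each sample pooled 20 whole plants aged 10 days, which had been raised at 22 °C in LD and were taken at ZT18. The labels name no independent lines, growth rounds or batches, so p-values measure the spread between these pools, which may be technical. The table has a single TEM1 value per sample, which cannot separate transgene from endogenous transcripts.

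CDKs are kinases that act only when bound to a cyclin, and the cyclin partner sets the stage of the cell cycle at which they act. In plants, D-type cyclins with CDKA phosphorylate the retinoblastoma-related protein RBR1 and so release E2F factors that switch on DNA replication. A-type cyclins follow during S phase and the approach to mitosis, and B-type cyclins with the plant-specific CDKB kinases drive mitosis. KRP and SIM-related proteins bind and block the kinase complexes, and in leaves and trichomes they are known for turning dividing cells towards the endocycle, in which DNA is copied without division.

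The values are RPKM, which divide the reads of a gene by its length and by the size of the library. The TEM1 gene itself reached 784 and 827 in the 35S:TEM1 samples, where the WT samples had 16.3 and 30.3, which fits the labels. The low values and reference exon lengths put the library totals at an estimated 20.18 to 30.43 M reads (M, units of 1e+06). On that estimate the tested members had from 16 reads (CYCD4;2) to 3703 reads (CYCD3;2) in a sample. Members were tested where their mean RPKM was at least 1, which kept 39 of 41. The lowest means inside that limit were 1.06 (CYCD4;2) and 1.51 (CYCB2;1), and those outside were 0.65 (CYCA2;1) and 0.114 (CYCD7;1). Over all tested genes the median log2 fold change (35S:TEM1 minus WT, on the log2(RPKM + 1) scale) was 0.12, a general shift against which the values below are read.

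Of the 39 tested members 5 rose in 35S:TEM1, 1 fell and 33 did not pass the test (limma, Benjamini-Hochberg adjusted p under 0.05 over all tested genes). Those that rose were the D-type cyclins CYCD3;2 (AT5G67260) and CYCD3;3 (AT3G50070), the A-type cyclin CYCA2;4 (AT1G80370) and the inhibitors KRP1 (AT2G23430) and SIM (AT5G04470). The one that fell was the D-type cyclin CYCD6;1 (AT4G03270). The calls are 15.4% of the tested members, where 25.7% of all 17746 tested genes passed, 18.3% as higher and 7.37% as lower, so the members were not called more often than other genes. Their log2 fold changes ran from -0.57 to 0.77 with a median of 0.22. An unadjusted p under 0.05 was seen for 14 members, 35.9% of those tested, against 40.4% of all genes. In 21 tested members both 35S:TEM1 samples lay above both WT samples and in 3 they lay below, where 47.4% and 20.7% of all tested genes did so.

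How many members passed depended on single samples. Leaving out 35S:TEM1 replicate 1 left 2 higher and 0 lower, leaving out 35S:TEM1 replicate 2 left 3 and 1, and leaving out WT replicate 2 gave 8 and 0. With the samples set to equal medians 5 members were higher and 3 lower. CYCD3;3 and KRP1 kept their calls in all 13 alternative settings that were run.

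**Figure D1:**
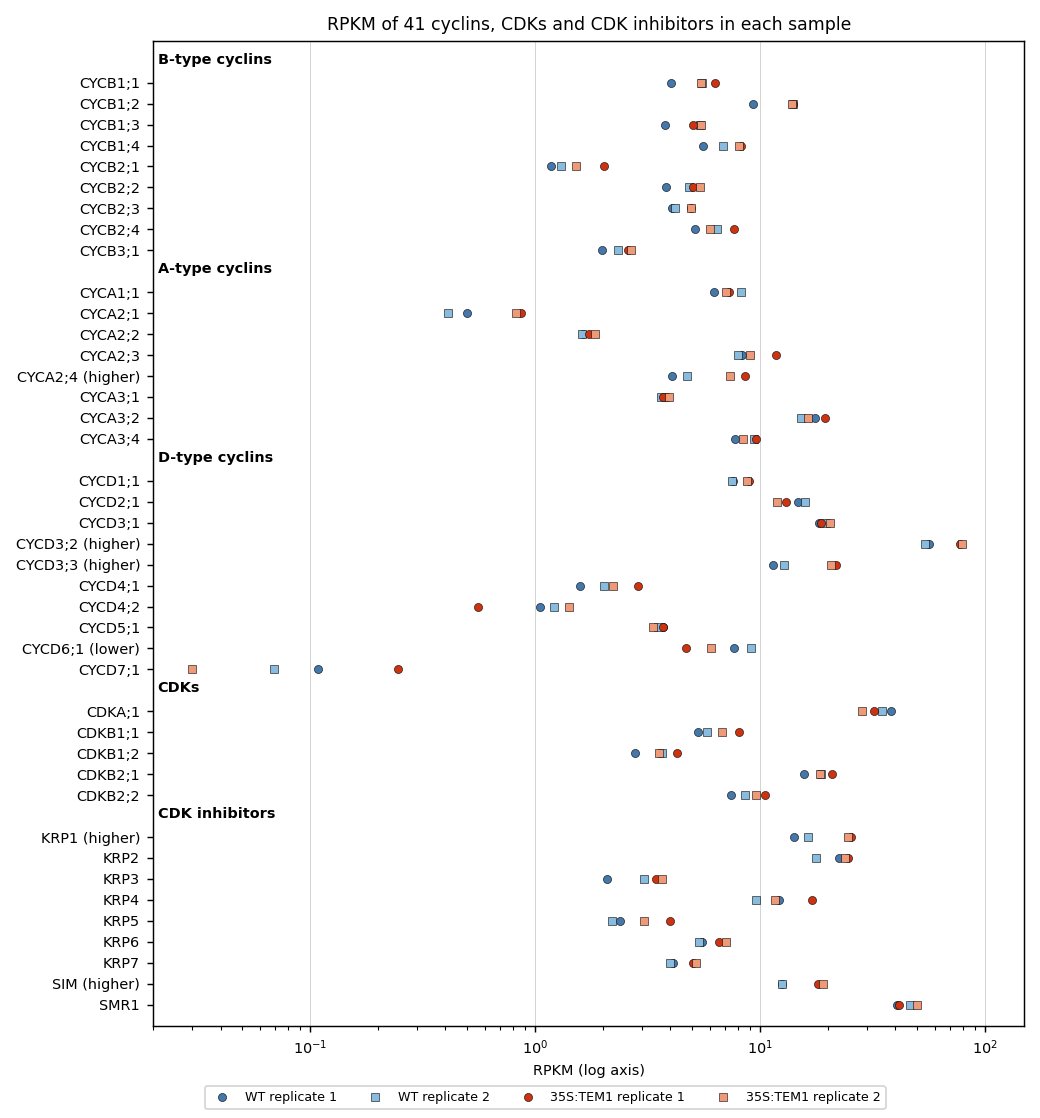
RPKM (log axis) of each of the 41 members in the 4 samples, grouped by class, with blue symbols for WT and red for 35S:TEM1. One D-type cyclin, CYCD3;2, has the highest values and another, CYCD7;1, the lowest, and in the 5 genes marked as higher both red symbols stand to the right of both blue ones.

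Upstream sequences of the genes the results turn on were read from the RefSeq annotation of TAIR10.1 as the 250 bases before the annotated gene start. Matches were sought on both strands to CAACA and CACCTG, motifs bound by RAV factors, and to AACGG, the core of the element that drives mitotic genes through MYB3R factors. Every start of a match was counted, overlapping or not. The windows of CYCD3;2 and CYCD6;1, D-type cyclins that passed the test in opposite directions, are printed to show their matches to a RAV motif. The windows of CYCB1;2 and KRP1 hold the most AACGG matches of any cyclin and any inhibitor. Capitals mark the matches or their reverse complements: CAACA in CYCD3;2 and CYCD6;1, AACGG in KRP1, and in CYCB1;2 AACGG and a CAACA that directly follows one copy of it.
CYCD3;2, chr5:26835889-26836138, plus strand: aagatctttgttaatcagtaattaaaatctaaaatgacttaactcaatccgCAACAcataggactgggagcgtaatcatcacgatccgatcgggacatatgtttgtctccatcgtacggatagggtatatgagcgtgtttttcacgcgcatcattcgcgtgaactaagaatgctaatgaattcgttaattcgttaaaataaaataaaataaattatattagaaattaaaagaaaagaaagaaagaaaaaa
CYCD6;1, chr4:1433862-1434111, minus strand: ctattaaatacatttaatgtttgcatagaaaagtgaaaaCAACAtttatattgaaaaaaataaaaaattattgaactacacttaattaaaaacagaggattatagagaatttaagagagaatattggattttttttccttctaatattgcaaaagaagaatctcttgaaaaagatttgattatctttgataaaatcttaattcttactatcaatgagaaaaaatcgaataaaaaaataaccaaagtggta
CYCB1;2, chr5:1861704-1861953, minus strand: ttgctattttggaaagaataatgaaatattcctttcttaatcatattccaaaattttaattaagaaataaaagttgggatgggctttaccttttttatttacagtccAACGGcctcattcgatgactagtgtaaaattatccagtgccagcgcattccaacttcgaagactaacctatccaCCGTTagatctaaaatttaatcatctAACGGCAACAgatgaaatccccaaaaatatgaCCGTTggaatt
KRP1, chr2:9978091-9978340, minus strand: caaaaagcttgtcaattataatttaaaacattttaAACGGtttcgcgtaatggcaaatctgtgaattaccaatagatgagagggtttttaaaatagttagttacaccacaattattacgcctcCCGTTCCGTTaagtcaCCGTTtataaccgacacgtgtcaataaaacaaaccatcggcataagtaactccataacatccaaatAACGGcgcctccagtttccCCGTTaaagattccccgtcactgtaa

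CAACA was present in 18 of the 41 member windows, where 47.4% of 27443 windows of genes hold it. CACCTG was present in 2 (KRP4 and KRP5), where 2.6% of all windows do. AACGG lay in 6 of 9 B-type windows, where 20.6% of all windows hold it, and in 3 of 8 A-type, 1 of 10 D-type, 1 of 5 CDK and 4 of 9 inhibitor windows. The D-type window with AACGG, of CYCD3;1, lies wholly over exon sequence of AT4G34150. The windows of CDKB1;1 and CDKB2;1 lie over exons of neighbouring genes for 163 and 144 of their 250 bases. A match describes letters only and is not a binding site.

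D-type cyclins link growth signals to entry into the cycle, and 2 of the 9 tested rose and 1 fell. Of all tested genes 18.3% rose and 7.37% fell. The median of the class was 0.04. The most abundant of all the members per length was CYCD3;2, with an RPKM of 56.2 and 54.2 in WT replicates 1 and 2 and 77.7 and 79.2 in 35S:TEM1. The genotypes did not overlap, and its mean was 1.42-fold higher (log2 fold change 0.50 ± 0.07 SE, limma adjusted p = 0.00644). The call was lost when either 35S:TEM1 replicate was left out (adjusted p = 0.0515 and 0.0561), with log2 fold changes of 0.51 and 0.49. CYCD3;3 showed the largest log2 fold change of the tested members. WT values of 11.4 and 12.8 faced 35S:TEM1 values of 21.8 and 20.8, which did not overlap (1.76-fold, 0.77 ± 0.10, adjusted p = 0.00347). The remaining gene of this subfamily, CYCD3;1 (AT4G34160), had 18.3 and 19.6 in WT beside 18.7 and 20.4. Its samples overlapped, and its log2 fold change was 0.04 with a 95% interval of -0.18 to 0.27. CYCD3 cyclins are known to keep leaf cells dividing and to respond to cytokinin. Whether the subfamily members differ from each other in response was not tested.

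CYCD6;1 is known in the root as a target of SHR and SCR that triggers the division which forms cortex and endodermis. Its RPKM was 7.7 and 9.11 in WT and 4.69 and 6.05 in 35S:TEM1, so that both overexpressing samples lay below both WT samples. The mean was 0.639 of the WT mean (log2 fold change -0.57 ± 0.14, limma adjusted p = 0.0343). The call was lost on leaving out 35S:TEM1 replicate 1 (-0.41, adjusted p = 0.175) or WT replicate 2 (-0.46, 0.0999), and also with no filter on low values (0.0697). SHR and SCR, members of a root marker list that are set beside this gene here after their values were seen, rose in the same samples by 0.76 ± 0.13 (adjusted p = 0.01) and 0.72 ± 0.08 (0.00262). Of the 50-base words in the CYCD6;1 transcripts 19.1% also lie in AT4G03260, which overlaps it on the opposite strand and had 40.4 and 44.6 in WT and 51.1 and 46.3 in the overexpressing plants. The strand setting of the counting is not stated, so the level of CYCD6;1 is uncertain.

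Among the other D-type cyclins the closest to the threshold was CYCD2;1 (AT2G22490), which is known to respond to sucrose. It had 14.7 and 15.9 in WT and 13.0 and 11.9 in 35S:TEM1. These values did not overlap, but the difference did not pass (-0.28, adjusted p = 0.0801). It did pass, as lower, with equal sample medians (-0.43, 0.0224) and under quantile normalization (-0.42, 0.0269). In CYCD1;1 (AT1G70210) the WT samples had 7.63 and 7.55 and the others 8.9 and 8.78 (0.20, adjusted p = 0.165). CYCD4;1 (AT5G65420) had 1.58 and 2.02 beside 2.87 and 2.23 (0.34, 0.16). Neither gene overlapped between genotypes and neither passed. Both 35S:TEM1 samples lay above both WT samples in 4 of the 9 tested D-type cyclins and below in 2. Of all tested genes 47.4% and 20.7% did so. CYCD5;1 (AT4G37630) had 3.69 and 3.51 in WT beside 3.71 and 3.36, which overlapped.

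A pair of low D-type cyclins act in the stomatal lineage. CYCD4;2 (AT5G10440), which has a known part in stomatal precursor divisions of the hypocotyl, had 1.05 and 1.21 in WT and 0.56 and 1.42 in 35S:TEM1. The overexpressing samples lay on either side of the WT samples (95% interval of the log2 fold change -0.69 to 0.43). CYCD7;1 (AT5G02110), which acts in the last division of that lineage, had 0.109 and 0.0688 in WT and 0.247 and 0.0299 in 35S:TEM1 and was not tested. A count of 3 reads corresponds to 0.0753 to 0.114 for this gene, and 1 sample of each genotype lay under its own floor, which covers counting error only.

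The D-type cyclins summed to an RPKM of 122 and 126 in WT and 152 and 154 in 35S:TEM1. Their make-up shifted towards the CYCD3 genes that rose. CYCD3;2 made up 45.9% and 43.0% of the sum in WT and 51.1% and 51.3% in 35S:TEM1, and CYCD3;3 made up 9.3% and 10.2% and 14.3% and 13.5% in the same order. The share of CYCD2;1 was 12.0% and 12.6% in WT and 8.53% and 7.72% in 35S:TEM1. These shares follow from the levels above and carry no test of their own.

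**Figure D2:**
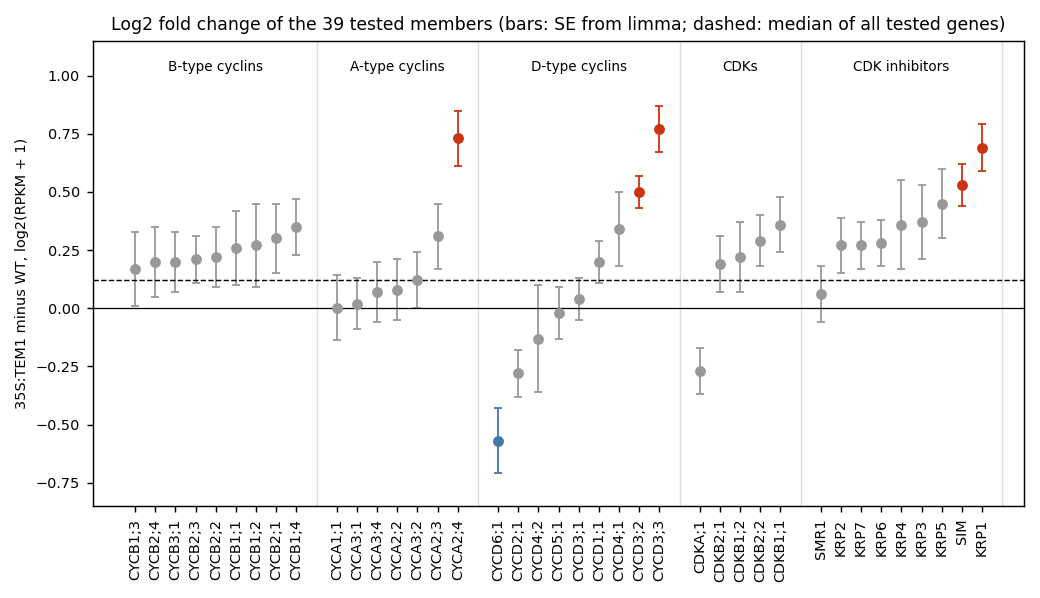
Log2 fold change (35S:TEM1 minus WT on the log2(RPKM + 1) scale) of the 39 tested members, ordered within each class, with bars for the standard error from limma. Red marks higher and blue lower calls, and the dashed line is the median of all tested genes (0.12). The 9 B-type cyclins lie between 0.17 and 0.35 without a call, while the D-type cyclins spread from -0.57 to 0.77.

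CDKA;1 (AT3G48750), the kinase partner of D-type and A-type cyclins, was among the most abundant members, with 38.4 and 34.9 in WT and 32.1 and 28.5 in 35S:TEM1. Both overexpressing samples lay below both WT samples, but the log2 fold change of -0.27 did not pass (limma adjusted p = 0.0941, 95% interval -0.51 to -0.03). With equal sample medians it passed as lower, at -0.42 (adjusted p = 0.0273).

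The 4 CDKB kinases, known for their peak before and during mitosis, had log2 fold changes of 0.19 to 0.36. Of these 0 passed in limma, with 2 at an unadjusted p under 0.05, where 40.4% of all tested genes were. CDKB1;1 (AT3G54180) had 5.3 and 5.81 in WT and 8.11 and 6.81 in 35S:TEM1 (0.36, adjusted p = 0.0704), and CDKB2;2 (AT1G20930) had 7.42 and 8.6 and 10.5 and 9.57 (0.29, 0.101). The genotypes did not overlap in either gene, where 47.4% of all tested genes had both 35S:TEM1 samples above both WT samples. CDKB1;2 (AT2G38620) had 2.78 and 3.67 beside 4.26 and 3.57 and CDKB2;1 (AT1G76540) had 15.7 and 18.7 beside 21.0 and 18.5. In this pair WT replicate 2 exceeded 35S:TEM1 replicate 2.

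Among A-type cyclins 1 of 7 tested members passed, where 25.7% of all tested genes did, and the class median was 0.08. The member that passed was CYCA2;4, one of the A2 cyclins known to promote division and restrain the endocycle. It had 4.08 and 4.72 in WT and 8.61 and 7.36 in 35S:TEM1. The samples did not overlap (1.82-fold, log2 fold change 0.73 ± 0.12, limma adjusted p = 0.00934), and the call was lost without 35S:TEM1 replicate 1 (0.63, 0.0648). Its relative CYCA2;3 (AT1G15570) had 8.31 and 7.99 beside 11.8 and 9.0 (0.31, adjusted p = 0.148), and CYCA2;2 (AT5G11300) had 1.64 and 1.62 beside 1.73 and 1.84 (0.08, 0.664). CYCA2;1 (AT5G25380) had 0.5 and 0.41 in WT and 0.867 and 0.821 in 35S:TEM1 and was not tested, being under the expression limit. In all 4 A2 genes both overexpressing samples lay above both WT samples, where 47.4% of all tested genes did so.

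The other A-type cyclins overlapped between genotypes. CYCA1;1 (AT1G44110), a mitotic A-type cyclin, had 6.28 and 8.22 in WT beside 7.32 and 7.09, with a 95% interval of -0.33 to 0.33 for its log2 fold change. Of the A3 cyclins, which are known from S phase, CYCA3;2 (AT1G47210) had 17.5 and 15.2 beside 19.5 and 16.3. CYCA3;4 (AT1G47230) had 7.73 and 9.42 beside 9.61 and 8.41, and CYCA3;1 (AT5G43080) had 3.85 and 3.65 beside 3.71 and 3.94. Their log2 fold changes were 0.12, 0.07 and 0.02 in this order.

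B-type cyclins bring cells through mitosis, and their transcripts mark cells about to divide. Of the 9, 0 passed in limma, with 1 at an unadjusted p under 0.05, where 40.4% of all tested genes were. Their log2 fold changes were all positive, from 0.17 to 0.35 with a median of 0.22, where 65.9% of all tested genes had a positive value. The most abundant, CYCB1;2 (AT5G06150), had 9.35 and 14.0 in WT replicates 1 and 2 and 14.1 and 13.9 in 35S:TEM1. WT replicate 2 lay with the 35S:TEM1 samples and WT replicate 1 alone was low (0.27, adjusted p = 0.294, 95% interval -0.16 to 0.69). Of its 50-base words 11.2% also lie in AT1G34460, which had an RPKM of 0.193 to 0.516.

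The widely used division marker CYCB1;1 (AT4G37490) had 4.03 and 5.54 in WT and 6.29 and 5.46 in 35S:TEM1 (0.26, limma adjusted p = 0.26), and CYCB1;3 (AT3G11520) had 3.8 and 5.41 beside 5.05 and 5.48 (0.17, 0.452). Both overlapped. In CYCB1;4 (AT2G26760) the genotypes did not overlap, with 5.56 and 6.85 beside 8.23 and 8.1 (0.35, 0.0779). The B2 and B3 cyclins were at lower or similar levels. CYCB2;1 (AT2G17620) had 1.18 and 1.31 beside 2.03 and 1.52, CYCB2;2 (AT4G35620) had 3.84 and 4.86 beside 5.06 and 5.39, and CYCB2;3 (AT1G20610) had 4.07 and 4.18 beside 4.92 and 4.92. CYCB3;1 (AT1G16330) had 1.99 and 2.34 beside 2.6 and 2.66. In these 4 genes the genotypes did not overlap, and in CYCB2;4 (AT1G76310) they did (5.17 and 6.43 beside 7.65 and 6.03).

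WT replicate 1 was the lowest of the 4 samples in 9 of 9 B-type cyclins, in 4 of 5 CDKs, in 17 of 20 genes of a mitosis and cytokinesis list and in 19 of 26 genes of an E2F and DNA replication list, where it was lowest in 33.8% of all tested genes. It was lowest in 3 of 10 D-type cyclins and in 4 of 9 inhibitors. Within genotypes, WT replicate 1 lay below WT replicate 2 in 26 of the 41 members (53.4% of all tested genes), and 35S:TEM1 replicate 1 lay above 35S:TEM1 replicate 2 in 26 (58%). The B-type sum was 39.0 and 50.9 in WT and 55.9 and 53.5 in 35S:TEM1, so the WT samples lay further apart than WT replicate 2 and either 35S:TEM1 sample. Without WT replicate 1 the B-type median was 0.09. Without WT replicate 2 it was 0.36, and CYCB1;2 (0.54, limma adjusted p = 0.0182) and CYCB1;4 (0.48, 0.0365) then passed as higher. In pooled whole plants, fewer cells of a type and less RNA per cell cannot be told apart.

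**Figure D3:**
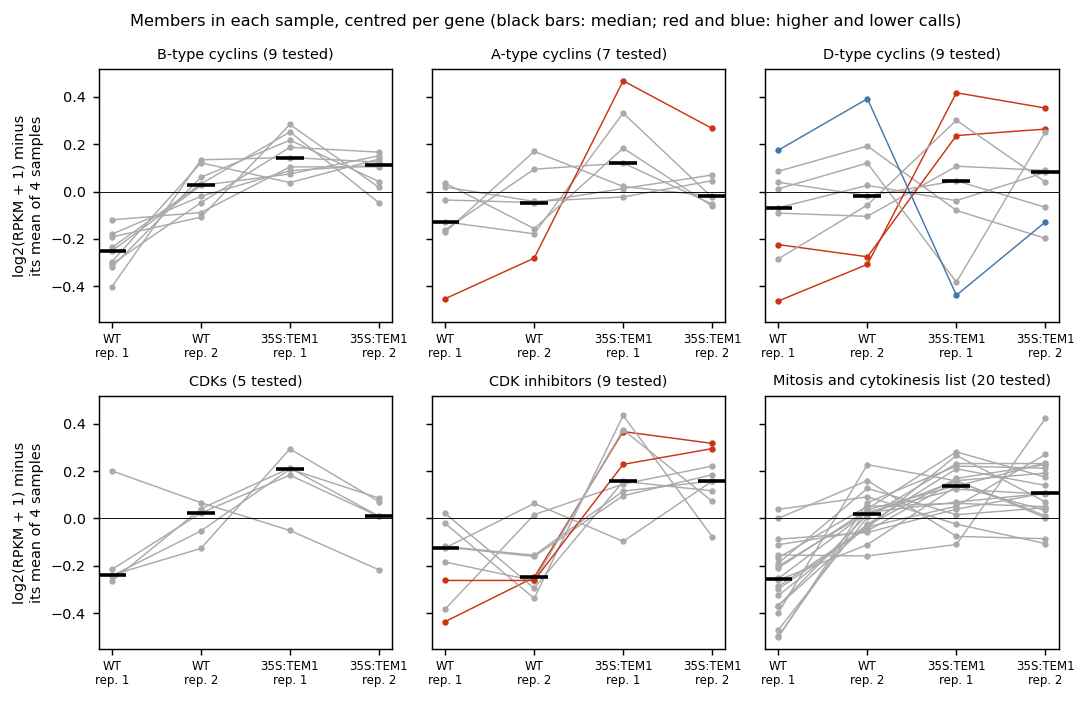
Log2(RPKM + 1) of each tested member in each sample, centred on the gene's mean of the 4 samples, by class and for the mitosis and cytokinesis list. Lines join the values of 1 gene, black bars are medians, and red and blue lines are higher and lower calls. WT replicate 1 is low across the B-type cyclins, 4 of 5 CDKs and most of the mitosis list. In 7 of 9 inhibitors both 35S:TEM1 samples lie above both WT samples, where 47.4% of all tested genes do so.

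The CDK inhibitors had the highest class median (0.36), and 2 of 9 rose, 0 fell and 7 did not pass. Calls made up 22.2% of these inhibitors, where 25.7% of all tested genes passed. Both 35S:TEM1 samples lay above both WT samples in 7 of them, where 47.4% of all tested genes did so. KRP1, which binds D-type cyclins and CDKA, had 14.2 and 16.3 in WT and 25.5 and 24.6 in 35S:TEM1. The samples did not overlap (1.65-fold, log2 fold change 0.69 ± 0.10, limma adjusted p = 0.00545). SIM, which is known to stop division in developing trichomes, had 12.6 and 12.6 in WT and 18.1 and 19.0 in 35S:TEM1 (1.48-fold, 0.53 ± 0.09, 0.00847). Its call was lost when either 35S:TEM1 replicate was left out (0.56 with adjusted p = 0.0512, and 0.49 with 0.0664). Of the 50-base words of SIM 25.4% also lie in AT5G04475, which overlaps it on the opposite strand. AT5G04475 has no values in the deposited table, so the level of SIM is uncertain. SMR1 (AT3G10525), also called LGO and known for the giant cells of the sepal, was the second most abundant member in WT. It had 40.8 and 46.6 beside 41.6 and 49.8, which overlapped (95% interval -0.22 to 0.34). Of its words 32.7% lie in AT3G10527 on the opposite strand, which also has no values in the deposited table.

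The other KRP genes had log2 fold changes of 0.27 to 0.45. Of these 6, 0 passed in limma, with KRP5, KRP6 and KRP7 at an unadjusted p under 0.05, where 40.4% of all tested genes were. KRP5 (AT3G24810), known from elongating root cells, had 2.39 and 2.21 in WT and 3.99 and 3.05 in 35S:TEM1 (adjusted p = 0.0691). KRP6 (AT3G19150) had 5.55 and 5.37 beside 6.61 and 7.09 (0.28, 0.0902), and KRP7 (AT1G49620) had 4.12 and 3.99 beside 5.02 and 5.2 (0.27, 0.105). KRP2 (AT3G50630), a regulator of lateral root initiation, had 22.4 and 17.8 beside 24.7 and 24.0 (0.145), and KRP3 (AT5G48820) had 2.08 and 3.06 beside 3.44 and 3.68 (0.37, 0.145). The genotypes did not overlap in these 5, where 47.4% of all tested genes had both 35S:TEM1 samples above both WT samples. In KRP4 (AT2G32710) they did (12.2 and 9.6 beside 17.1 and 11.7, 0.36, adjusted p = 0.207), and 36.7% of its words lie in AT2G32720 on the opposite strand, a gene that fell (63.5 and 59.9 to 44.8 and 44.9, 0.0101). KRP2 passed as higher without WT replicate 1 (0.43, limma adjusted p = 0.0266) and KRP3 without WT replicate 2 (0.57, 0.0427). The summed RPKM of KRP1 to KRP7 was 62.9 and 58.3 in WT and 86.3 and 79.4 in 35S:TEM1.

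The genes around these regulators were taken from lists by their known roles. Of the 26 genes of E2F control and DNA replication 24 were tested, of which 3 rose and 1 fell (median 0.17). These calls are 16.7% of the tested genes of the list, where 25.7% of all tested genes passed. TSO2, a small subunit of ribonucleotide reductase, had 45.4 and 54.9 in WT and 74.2 and 67.8 in 35S:TEM1 (0.50 ± 0.11, limma adjusted p = 0.0232). RBR1, the target of D-type cyclin kinases, had 9.5 and 10.3 beside 13.3 and 12.4 (0.35 ± 0.10, 0.043), and the helicase subunit MCM4 had 6.39 and 7.28 beside 8.89 and 9.61 (0.39 ± 0.11, 0.0443). RNR2A, another small subunit of ribonucleotide reductase, had 13.8 and 18.6 beside 10.4 and 11.1 (-0.54 ± 0.15, 0.0419). The genotypes did not overlap in these 4 genes, which were picked by the test on the same samples, so this is no further support. On leaving out 35S:TEM1 replicate 1, 35S:TEM1 replicate 2 or WT replicate 1 the higher calls numbered 0, 0 and 1, and they numbered 0 with equal sample medians. The lower call, of RNR2A, was lost without either 35S:TEM1 replicate or without WT replicate 2. RNR2A also missed the threshold with no filter on low values (limma adjusted p = 0.0751) and with no trend (0.0563). With no filter 1 other gene of the list was lower.

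Of the 20 mitosis and cytokinesis genes 0 passed in limma, with 6 at an unadjusted p under 0.05 and a median of 0.27, and 7 were higher without WT replicate 2. Regulators of the endocycle and the anaphase-promoting complex gave 0 calls among 6 (1 at an unadjusted p under 0.05, median 0.12). CDK-activating kinases and CKS subunits gave 0 among 7 (0 unadjusted, median 0.15). Of all tested genes 40.4% had an unadjusted p under 0.05 and 18.3% were called higher. Of 7 further genes listed as SIM-related inhibitors 4 were tested and 1 rose. This was AT1G08180, annotated by RefSeq as a CDK inhibitor, with 9.08 and 6.4 in WT and 18.2 and 15.7 in 35S:TEM1 (1.05 ± 0.16, limma adjusted p = 0.00743).

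**Figure D4:**
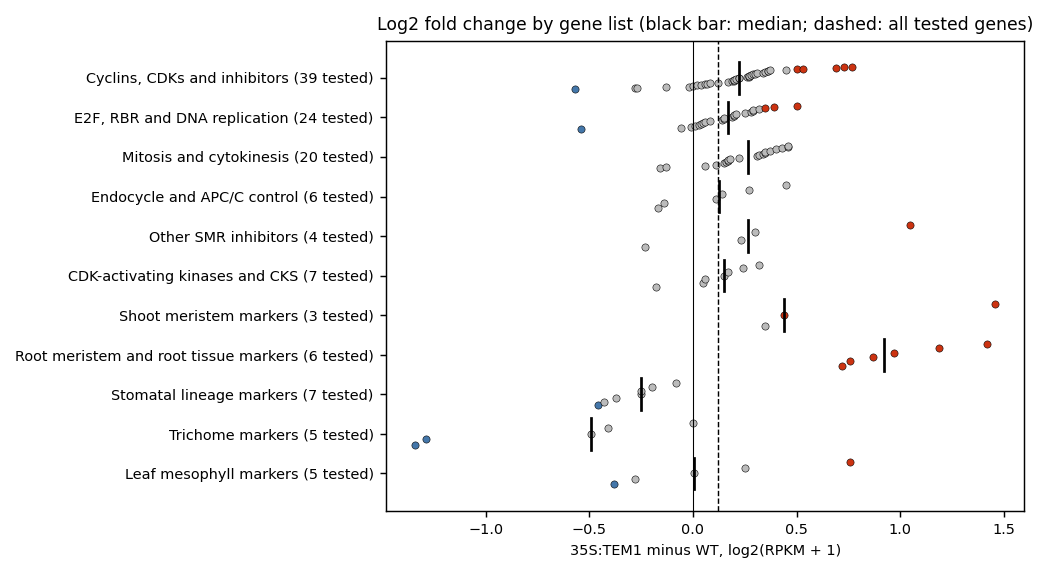
Log2 fold change of every tested gene among the members and in 10 further lists, each point a gene, with list medians as black bars and the median of all tested genes dashed. Red and blue mark higher and lower calls. The root markers have a median of 0.92 and the trichome markers of -0.49, while the medians of the cell cycle lists run from 0.12 to 0.27.

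Marker genes of tissues that could carry these transcripts moved in the same samples. All 6 tested root markers of 9 rose, where 18.3% of all tested genes did. WOX5, PRP3 and EXPA7 had WT means of 0.555, 0.845 and 0.356, under the limit of 1, and were tested only through their 35S:TEM1 values. The count and the list median are thus partly set by that filter. The list was drawn up with earlier results of these data known, so its direction is no independent evidence. Its summed RPKM was 29.4 and 31.0 in WT and 55.2 and 61.9 in 35S:TEM1, with SCR (18.4 and 17.5 in WT, 29.8 and 30.6 in 35S:TEM1) as the most abundant gene. PRP3 (1.42 ± 0.14), CASP1 (1.19 ± 0.19), EXPA7 (0.97 ± 0.20) and WOX5 (0.87 ± 0.14) had the largest log2 fold changes. Without 35S:TEM1 replicate 2, 3 root markers were higher, since WOX5, SHR and EXPA7 then missed the threshold. The root stem cell factors PLT1 and PLT2 were at most 0.152 in any sample. Of 6 shoot meristem markers 3 were tested, and KNAT1 (1.46 ± 0.11, limma adjusted p = 0.000659) and STM (0.44 ± 0.12, 0.047) rose. The STM call was lost on leaving out any 1 sample (adjusted p = 0.0665 to 0.228) and with equal sample medians (0.153). WUS was listed at 0 in 3 of 4 samples and CLV3 at 0 in 2, and the sum was 22.1 and 27.8 in WT beside 42.1 and 41.1.

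In trichomes, where SIM is known to act, GL2 (-1.34 ± 0.11) and GL1 (-1.29 ± 0.15) fell and the other 3 of 5 markers did not pass, with a sum of 41.4 and 36.9 in WT beside 30.1 and 28.8. Most of that sum was TTG1 (25.3 and 20.9 beside 24.2 and 21.9), which did not pass. Among 7 stomatal lineage markers SPCH fell (-0.46 ± 0.12, limma adjusted p = 0.0352) and 6 did not pass, with a sum of 55.4 and 46.1 beside 40.1 and 38.2. The SPCH call was lost on leaving out any 1 sample (adjusted p = 0.0533 to 0.179), while 3 stomatal markers were lower with equal sample medians. Of 5 mesophyll markers LHCB1.2, which has near-identical copies, rose (0.76 ± 0.11) and RCA fell (-0.38 ± 0.08, which missed the threshold on leaving out either sample of 35S:TEM1), with a sum of 31342 and 32298 beside 24315 and 28202. Most of that sum was RBCS1A (24583 and 25557 beside 18714 and 22702), which did not pass (limma adjusted p = 0.128). Log2 fold changes were positive in 3 mesophyll markers and negative in 2. Beside the calls in these marker lists, 18.3% of all tested genes were called higher and 7.37% lower. The part of tissue make-up in the changes of the cyclins and inhibitors was not tested.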

How the data were processed

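The authors deposited 1 RPKM value per locus and sample. Total RNA was DNase-treated, per the labels' protocols. Names found in the submitters' processing notes are STAR, Cuffdiff 2.2.1, bcl2fastq 1.8.4, FastQC and TAIR10, without their roles. How reads were counted, filtered or assigned to strands is not stated in the sources read for this work. Genes with a mean RPKM of at least 1 (17746 of 32678) were tested as log2(RPKM + 1) with limma 3.58.1 in R 4.3.3 (mean-variance trend, 2-sided, Benjamini-Hochberg over all tested genes, threshold 0.05). This scale understates fold changes of low genes. Log2 errors and 95% intervals come from that fit (2 residual and 4.17 prior degrees of freedom). Library totals were estimated from the most frequent size of 1 read over RefSeq exon lengths. Shared words are 50-base stretches of a gene's transcripts found, on either strand, in another gene's.

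Names, exons, coordinates and sequences came from RefSeq TAIR10.1 by locus, and all 41 members matched. The sequence of 1 upstream window and a search for E2F motifs are not reported here. Members and lists were chosen with earlier results of these data known. Every member is named, and from each list up to 4 called genes with the largest log2 fold change. The lists cover E2F and DNA replication, mitosis and cytokinesis, endocycle and APC/C control, SIM-related inhibitors, CDK-activating kinases and CKS, and markers of shoot meristem, root, stomatal lineage, trichome and mesophyll. The 13 alternatives changed the pseudocount (0.1, 0.25), the filter (none, mean RPKM of at least 5), the scaling, the variance model, the samples or the block.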

Additional observations from a re-analysis of the deposited data

How the results depend on the processing

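Over all genes 3255 were higher and 1308 lower, which became 1884 and 2388 after centring the samples on equal medians and 2021 and 1862 under quantile normalization. Leaving out 1 sample gave 1331 to 2955 higher and 545 to 1417 lower. Members called higher then numbered 2 to 8 and lower 0 to 1. The lower members numbered 0 with no filter, 3 after median centring and 2 under quantile normalization. All 6 calls passed under both pseudocounts, the mean RPKM of at least 5, both scalings, no trend, robust variance and without WT replicate 1. With 1 sample left out, the lone sample of a genotype is assumed to vary like the others.

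The replicate numbers are not stated to pair the samples (correlation of deviations 0.318, over 2 numbers). With the replicate block 9 members were higher (CYCB1;4, CDKB1;1, KRP4 and KRP5 added, with adjusted p = 0.0435, 0.0469, 0.0243 and 0.0352) and 2 lower (CDKA;1 added, 0.0387), and 5 mitosis genes and 1 endocycle gene were higher and 2 stomatal markers lower.

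E2F and replication genes called higher numbered 1 with no filter, 0 after median centring, 1 under quantile normalization and 0 to 2 with 1 sample left out. Those called lower numbered 0 with no trend and 0 to 1 with 1 sample left out. Mitosis genes called higher ranged from 0 to 7 and endocycle genes from 0 to 1 with 1 sample left out, and 1 endocycle gene was higher with robust variance. Of the SIM-related list 2 were higher with no filter.

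The settings for marker counts were added after seeing the data. Shoot markers called higher numbered 1 with no filter, 1 at a mean RPKM of at least 5, 1 after median centring, 1 under quantile normalization and 1 to 2 with 1 sample left out. At a mean RPKM of at least 5 STM (mean 3.65) was not tested. Root markers called higher numbered 2 at a mean RPKM of at least 5, where fewer are tested, and 3 to 6 with 1 sample left out. Stomatal markers called lower numbered 0 with no filter, 3 after median centring, 3 under quantile normalization, 2 with robust variance and 0 to 1 with 1 sample left out. Trichome markers called lower numbered 0 at a mean RPKM of at least 5, where GL1 and GL2 (means of 2.39 and 4.39) were not tested. Mesophyll markers called lower numbered 0 with no filter, 0 under quantile normalization and 0 to 1 with 1 sample left out.

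After median centring and under quantile normalization the class medians were -0.07 and -0.09 (A-type), -0.11 and -0.08 (D-type), 0.07 and 0.06 (CDKs), 0.07 and 0.05 (B-type) and 0.21 and 0.18 (inhibitors), where the median of all tested genes was -0.03 and -0.01. With 1 sample left out they ranged from 0.0062 to 0.19 (D-type), 0.07 to 0.37 (CDKs), 0.09 to 0.36 (B-type) and 0.26 to 0.43 (inhibitors). Some members that did not pass changed sign. After median centring and under quantile normalization the log2 fold changes were -0.15 and -0.17 for CYCA1;1, -0.07 and -0.10 for CYCA2;2, -0.13 and -0.16 for CYCA3;1, -0.03 and -0.01 for CYCA3;2, -0.08 and -0.09 for CYCA3;4, -0.11 and -0.08 for CYCD3;1 and -0.09 and -0.00015 for SMR1. With 1 sample left out the ranges were -0.04 to 0.38 for CYCB1;3, -0.17 to 0.17 for CYCA1;1, -0.01 to 0.06 for CYCA3;1, -0.0042 to 0.24 for CYCA3;2, -0.06 to 0.19 for CYCA3;4, -0.02 to 0.10 for CYCD3;1, -0.45 to 0.19 for CYCD4;2, -0.08 to 0.03 for CYCD5;1 and -0.07 to 0.19 for SMR1. The cause of these moves was not tested. Depth limits the low genes, among them CYCD7;1.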
